A study of Mus musculus with 2 samples.

Results

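Immediate early genes are transcribed within minutes of a stimulus from factors already present in the cell, and most of their mRNAs are short-lived. The genes described here were the FOS and JUN family members Fos, Fosb, Fosl2, Jun and Junb, the zinc finger factors Egr1, Egr3 and Klf4, the nuclear protein gene Ier2, and Zfp36, whose product tristetraprolin binds AU-rich elements in mRNAs and recruits deadenylases. The members were all probe sets whose platform annotation gives only 1 of these 10 symbols, in a current or an older name. That rule uses no measured value, but the 10 genes were put together with earlier results of these data known, so their shares below are not independent of the data. There were 14 such probe sets for the 10 genes, of 45037 probe sets other than controls and 18193 genes with a symbol of their own on the array.

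RNA came from cultures of Neuro2a, a mouse neuroblastoma line that resembles immature sympathetic neurons. siCPEB1-transfected cells received siRNA against Cpeb1, which encodes a protein that binds cytoplasmic polyadenylation elements, and siControl-transfected cells received a control siRNA, each for 24 h. The comparison asks how depletion of CPEB1 changed gene expression in these cells. There was 1 Affymetrix Mouse Genome 430 2.0 array for each siRNA, so no difference has a replicate check, no test between the conditions can be made, and all values below compare these 2 arrays.

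FOS proteins bind DNA only as dimers with a JUN partner, and the dimer, AP-1, recognises sites in the control regions of many genes. In neurons and neuroblastoma cells, growth factors and depolarisation reach these genes through kinases of the ERK, JNK and p38 families, which act on the serum response factor SRF with its partners of the ELK family and on the cAMP-responsive factor CREB. EGR proteins and KLF4 bind GC-rich sites, and tristetraprolin shortens the life of AU-rich mRNAs, several of which are made by immediate early genes.

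The values were MAS5 signals, which are array intensities on a linear scale with each array scaled as a whole, and the ratio is siCPEB1 over siControl on the log2 scale. A probe set was counted when 1 or both arrays gave it a signal at or above their median and neither gave one under its 25th percentile. It was taken as higher when the ratio was above 2 and as lower when it was below 0.5. As a yardstick within these 2 arrays, the log2 ratios of different probe sets of the same gene were compared with their gene's mean. They varied about it with an SD of 0.37 (n = 14939 probe sets). The SD lay between 0.21 for the brightest and 0.67 for the dimmest of 10 levels of signal. This SD holds differences between the probe sets of a gene, which can include differences between its transcripts. It leaves out error shared by all probe sets of a gene, and it holds none of the spread between cultures.

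The 2 arrays had alike signal distributions, with medians of 21.6 in siCPEB1 and 21.0 in siControl. The hybridization control probe sets had a mean log2 ratio of -0.13 (n = 18, SD 0.075). For the poly-A control probe sets the mean was -0.18 (n = 24, SD 0.18). Cpeb1 itself had a signal of 38.5 in siCPEB1-transfected cells, against 302 in siControl-transfected cells, 7.86-fold lower. All 12 sympathetic neuroblastoma markers matched on the array passed the filter. Of them, 6 were higher in siCPEB1, against 4.99% of all genes, and none was lower, against 3.49%. Their median log2 ratio was 0.99, and their summed signals were 19513 in siCPEB1 and 14847 in siControl. Gata3, with a log2 ratio of 1.90, and Mycn, with 1.36, were the farthest of them from 0. Of 33 markers of fibroblasts, glia, blood and endothelial cells on the array, 8 passed. The summed signals of those that passed were 376 in siCPEB1 and 165 in siControl for fibroblast markers (3 of 9, mostly Col1a2 in siCPEB1) and 45.4 in siCPEB1 and 23.0 in siControl for the glial marker (1 of 8). They were 66.0 in siCPEB1 and 49.1 in siControl for haematopoietic markers (2 of 9), and 137 in siCPEB1 and 53.9 in siControl for endothelial markers (2 of 7). Of the fibroblast markers that passed, 1 was higher (log2 ratio 2.87), against 4.99% of all genes, and 1 was lower (-1.85), against 3.49%. Among haematopoietic markers 1 was higher, as was 1 endothelial marker, and none was lower. With both arrays required to reach their median, no haematopoietic or endothelial marker was higher. The part of these shifts in the results below was not tested, and in bulk RNA fewer cells of a type and less RNA per cell cannot be told apart.

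All 14 probe sets passed the filter. Fos was more than 2-fold higher in siCPEB1-transfected cells, both probe sets of Klf4, 1 of 2 probe sets of Egr3 and the probe set of Zfp36 were more than 2-fold lower, and the other 9 probe sets lay within 2-fold. Counted over probe sets this was 1 of 14 higher, against 4.49% of the 23655 probe sets that passed on the whole array, and 4 of 14 lower, against 4.04%. With 1 probe set for a gene, 1 of 10 genes was higher, against 4.99% of 11554 genes, and 3 of 10 were lower, against 3.49%. The median log2 ratio was -0.22 over the 10 genes and 0.05 over all genes. With so few members these shares describe the 10 genes and carry no test. The plot of signals by probe set shows where each of them lay.

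**Figure D1:**
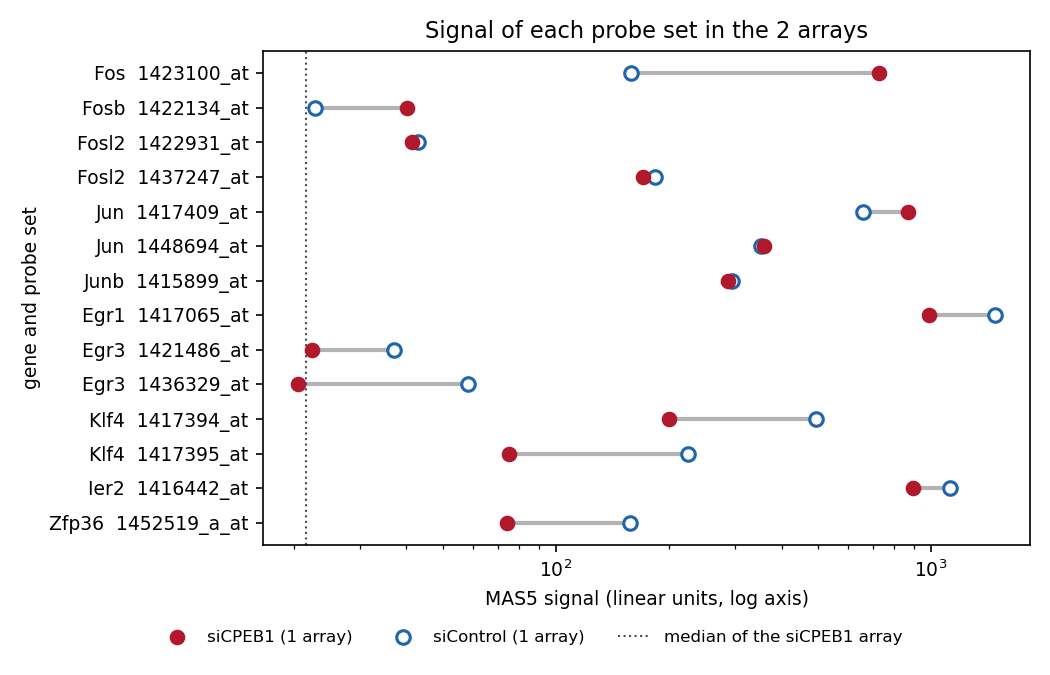
MAS5 signal (linear units on a log axis) of each of the 14 probe sets in the siCPEB1 array (filled red circles) and the siControl array (open blue circles), 1 array each, with a grey line joining both and a dotted line at the median of the siCPEB1 array. The siCPEB1 point lies far to the right for Fos and far to the left for Klf4, Zfp36 and 1 probe set of Egr3, whose siCPEB1 point alone falls below the median.

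Fos encodes the classical inducible partner of JUN and had the largest ratio of the 14 probe sets. Its probe set 1423100_at read 728 in siCPEB1-transfected cells, against 158 in siControl-transfected cells. The signal was 4.60-fold higher, a log2 ratio of 2.20, and ranked 81 from the highest of 23655 probe sets. At this signal, same-gene probe sets had an SD of 0.27, and the ratio stayed between 2.16 and 2.20 under all 4 other scalings of the arrays. Only 1 probe set measured Fos, so no second probe set of the gene bears on the value.

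Fosb and Fosl2, the other FOS family members chosen, lay within 2-fold. Fosb, a factor known for its stable isoform in stimulated neurons, had a signal of 40.0 in siCPEB1-transfected cells, against 22.8 in siControl-transfected cells at 1422134_at. The signal was 1.75-fold higher, a log2 ratio of 0.81 where the SD between probe sets was 0.49, and the siControl value lay close to the array median. Fosl2, whose product is the AP-1 subunit FRA2, read 171 in siCPEB1 and 184 in siControl at 1437247_at, a log2 ratio of -0.10. Its other probe set, 1422931_at, read 41.3 in siCPEB1 and 43.0 in siControl, a log2 ratio of -0.06. The log2 ratios therefore ran from Fos through Fosb to Fosl2, and only Fos passed 2-fold.

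The JUN genes, which supply the obligatory partners of FOS proteins, lay within 2-fold on all of their probe sets. Jun read 868 in siCPEB1-transfected cells, against 659 in siControl-transfected cells at 1417409_at, 1.32-fold higher or 0.40 on the log2 scale. The SD between probe sets at this signal was 0.26. At 1448694_at it read 359 in siCPEB1 and 353 in siControl, a log2 ratio of 0.02 that became -0.02 when the arrays were scaled on their medians or their 75th percentiles. The pair of probe sets for Jun therefore differed in size, and the second has no settled direction. Junb, a JUN protein that often opposes Jun, read 288 in siCPEB1 and 294 in siControl at 1415899_at, a log2 ratio of -0.03.

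Both EGR genes had lower signals in siCPEB1-transfected cells, by different amounts. Egr1, a zinc finger activator induced through SRF and ELK factors, read 990 in siCPEB1-transfected cells, against 1482 in siControl-transfected cells at 1417065_at. This was 1.5-fold lower, a log2 ratio of -0.58 where the SD between probe sets was 0.21, and it stayed within the 2-fold limit. Egr3, a relative of Egr1 that is likewise induced by activity in neurons, had low signals on both probe sets. At 1436329_at it read 20.6 in siCPEB1, below the array median, against 58.2 in siControl, 2.83-fold lower and a log2 ratio of -1.50. With the siCPEB1 value set at the array median, the signal was at least 2.69-fold lower in siCPEB1. At 1421486_at Egr3 read 22.3 in siCPEB1, against 37.1 in siControl, a log2 ratio of -0.73. The siCPEB1 signals of both Egr3 probe sets lay close to the array median, where the SD between probe sets was 0.49, and adding 16 to both signals moved the larger ratio to -1.02.

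Klf4, a zinc finger factor of pluripotent and differentiating cells and a rapidly induced gene in many cell types, was lower in siCPEB1-transfected cells on both of its probe sets. At 1417394_at it read 200.4 in siCPEB1-transfected cells, against 496 in siControl-transfected cells, 2.47-fold lower and a log2 ratio of -1.31. At 1417395_at it read 75.1 in siCPEB1, against 226 in siControl, 3.01-fold lower and a log2 ratio of -1.59. These ratios ranked 438 and 210 from the lowest of 23655. The SDs between probe sets at these signals were 0.30 and 0.33, and both ratios stayed past 2-fold under each scaling and with 16 added. Of the 4 genes with more than 1 probe set (Fosl2, Jun, Egr3 and Klf4), Klf4 alone had both past 2-fold.

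Ier2 encodes a small nuclear protein induced along with Fos. It read 899 in siCPEB1-transfected cells and 1127 in siControl-transfected cells at 1416442_at, 1.25-fold lower and a log2 ratio of -0.33, where the SD between probe sets was 0.26.

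Zfp36, the one member whose product acts on mRNA rather than DNA, read 74.0 in siCPEB1-transfected cells, against 158 in siControl-transfected cells at 1452519_a_at. It was 2.13-fold lower, a log2 ratio of -1.09, and ranked 751 from the lowest of 23655. The SD between probe sets at this signal was 0.33. The ratio lay between -1.15 and -1.09 under the scalings and was -0.95 with 16 added to both signals, so its place past 2-fold depended on that choice. It was also the only probe set for its gene.

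**Figure D2:**
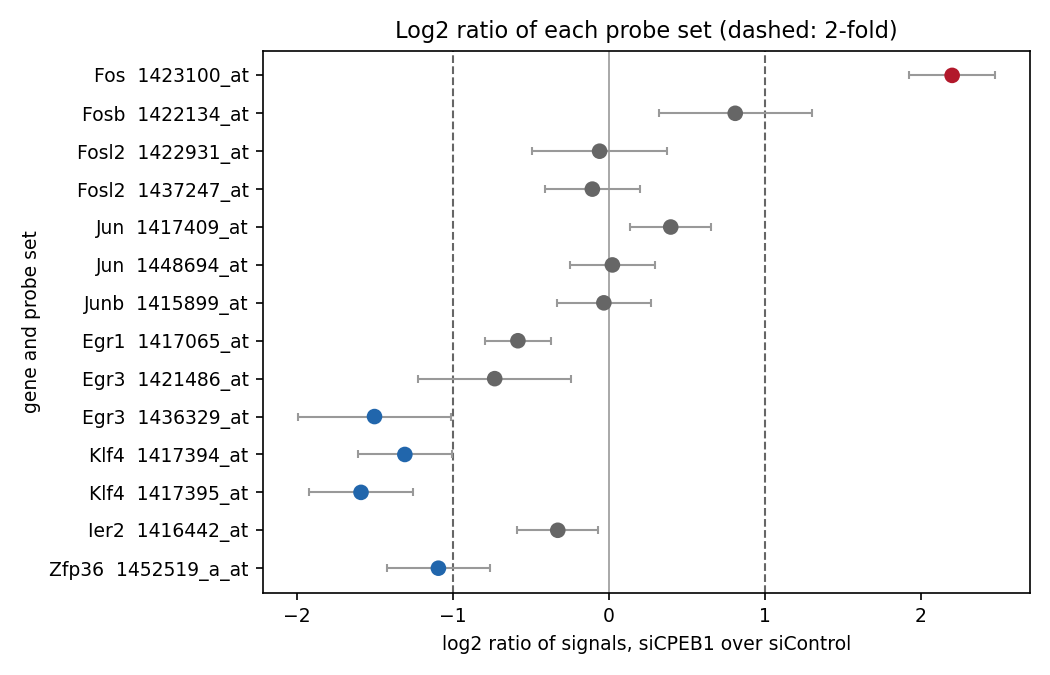
Log2 ratios (siCPEB1 over siControl) of the 14 probe sets, with bars of 1 SD among same-gene probe sets at that level of signal and dashed lines at 2-fold. Fos, at 2.20, lies alone on the right, and the blue points for Egr3 (1436329_at), Klf4 and Zfp36 lie left of the lower line at -1.50, -1.31, -1.59 and -1.09.

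Promoters are shown for the members past 2-fold that have a window in the RefSeq table of GRCm38.p6. These windows are short, and control sites farther upstream would not be seen in them. Each line is the 250 bases before the annotated start of transcription, 5′ to 3′ on the strand of the gene, at chr12:85473640-85473889 (+) for Fos, chr4:55532476-55532725 (-) for Klf4 and chr7:28379229-28379478 (-) for Zfp36. Capitals mark the cAMP response element half-site TGACG, the TATA box TATAAA, the EGR site GCGNGGGCG and the serum response element known as the CArG box, on either strand, and the AP-1 site TGANTCA was searched likewise.
Fos: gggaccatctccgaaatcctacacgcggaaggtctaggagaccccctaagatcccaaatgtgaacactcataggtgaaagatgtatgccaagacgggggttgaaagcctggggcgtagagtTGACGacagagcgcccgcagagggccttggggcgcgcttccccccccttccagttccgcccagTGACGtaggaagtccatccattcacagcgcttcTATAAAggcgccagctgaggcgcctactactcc
Klf4: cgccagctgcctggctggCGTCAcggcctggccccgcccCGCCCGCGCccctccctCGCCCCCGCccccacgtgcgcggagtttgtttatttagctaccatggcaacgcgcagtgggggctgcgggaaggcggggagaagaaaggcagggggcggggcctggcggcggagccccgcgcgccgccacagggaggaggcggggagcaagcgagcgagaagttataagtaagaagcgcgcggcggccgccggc
Zfp36: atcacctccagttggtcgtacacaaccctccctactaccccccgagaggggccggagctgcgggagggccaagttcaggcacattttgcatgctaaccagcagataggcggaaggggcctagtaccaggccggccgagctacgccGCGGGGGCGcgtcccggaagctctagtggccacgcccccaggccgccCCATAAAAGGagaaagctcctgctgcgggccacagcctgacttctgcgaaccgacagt
The Fos window held TGACG at 129 and at 66 bases before the start and TATAAA at 33. The Klf4 window held a TGACG on the other strand at 232 and 2 EGR sites on the other strand at 211 and 194. The Zfp36 window held an EGR site at 105 and a CArG box at 58 bases before the start. A match is a description of the letters in this window and not of a bound factor.

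**Figure D3:**
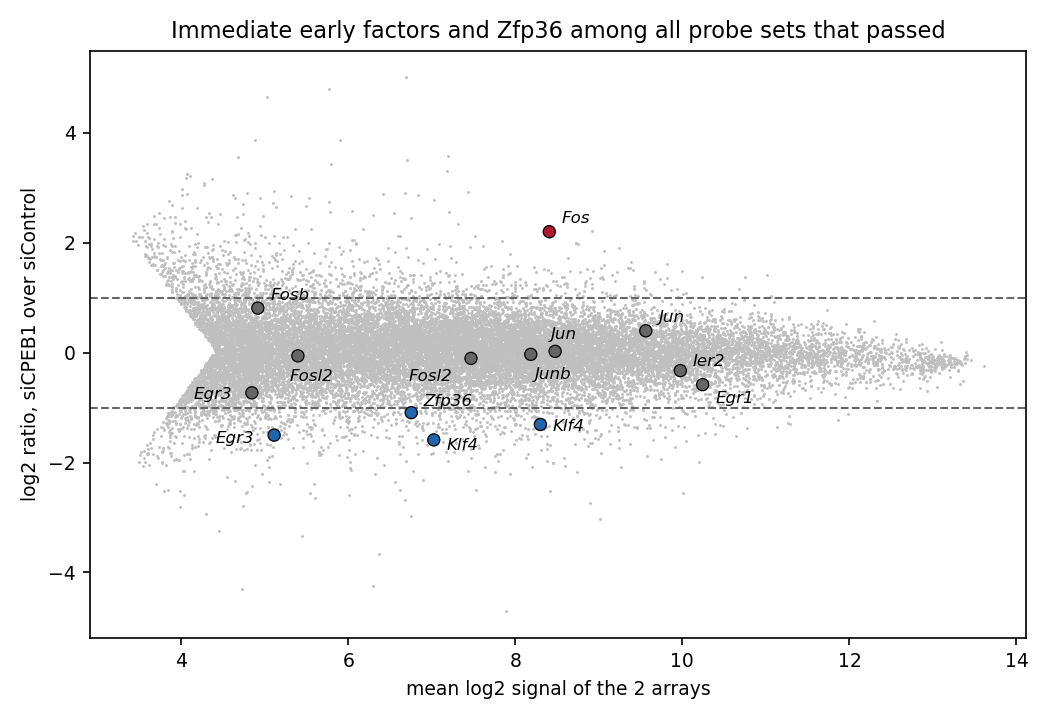
Log2 ratio of siCPEB1 over siControl against the mean log2 signal of both arrays for the 23655 probe sets that passed the filter (grey) and the 14 probe sets of the named genes (large circles, red above 2-fold, blue below 0.5-fold, dark grey between), with dashed lines at 2-fold. Fos lies above the bulk of probe sets of its signal, Klf4 and Zfp36 lie below it, and the low end of the signal axis, where Egr3 and Fosb lie, is the widest.

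Over the 7 members that have a window, TGACG stood in 4, against 17.8% of 32851 promoters in the table, and the EGR site in 4, against 4.70%. The 4 with an EGR site were Fosb, Fosl2, Klf4 and Zfp36, and the 4 with TGACG were Fos, Fosb, Junb and Klf4. The GC box GGGCGG, which can overlap the EGR site, stood in 6 of 7, against 32.7%. The promoters of the table were not matched to these 7 windows for base composition, and these shares carry no test. Among these 7 windows of 250 bases, TATAAA stood in that of Fos, against 12.4%, the CArG box in that of Zfp36, against 1.47%, and TGANTCA in none, against 6.75%. Sequence farther upstream was not read, so a site missing from a window, such as a CArG box in that of Fos, may still lie beyond it. Fos (higher) and Klf4 (lower) both held TGACG, and Fosb, Fosl2, Klf4 and Zfp36, which share the EGR site, had log2 ratios between -1.59 and 0.81. Whether any of these sites bears on the ratios was not tested.

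Other immediate early genes were examined for the same question, in a list of 35 of which 31 passed. Of these, 2 were higher, against 4.99% of all genes, and 4 lower, against 3.49%, with a median log2 ratio of -0.19. Only 2 were lower with 16 added to both signals, and 1 was higher and 2 were lower when both arrays had to give a signal at or above their median. Klf2, a KLF factor of endothelial and immune cells, read 21.0 in siCPEB1-transfected cells, below the array median, against 110 in siControl-transfected cells, at least 5.10-fold lower. Rhob, a small GTPase gene, read 148 in siCPEB1, against 449 in siControl, a log2 ratio of -1.60. Trib1, a pseudokinase gene, read 54.7 in siCPEB1, against 18.1 in siControl, at least 2.60-fold higher with the siControl value set at the array median. Ccn2, a matricellular gene, read 8.59 in siCPEB1, against 24.8 in siControl, at least 1.15-fold lower, so that its log2 ratio of -1.53 rested on signals near or below the median. The remaining genes past 2-fold, picked out after their values were seen, were Gadd45b, a stress gene with a log2 ratio of 1.14, and Bhlhe40, a repressor gene with -1.04. As among the members, genes of this class lay on both sides.

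The partners and relatives of the members lay mostly within 2-fold, as did 10574 of all 11554 genes. Among 15 other AP-1 and basic leucine zipper genes that passed, none was higher, against 4.99% of all genes, and 2 were lower, against 3.49%. The same shares stand beside the counts of the lists that follow. Cebpb, a C/EBP factor of stress and inflammation, read 802 in siCPEB1-transfected cells, against 2240 in siControl-transfected cells, a log2 ratio of -1.48. Ddit3, which encodes the stress factor CHOP, read 888 in siCPEB1, against 2213 in siControl, a log2 ratio of -1.32. The next in size were Jdp2, an AP-1 repressor gene, at -0.98 and Atf3 at -0.89. With the arrays scaled on their medians or 75th percentiles, or by loess, 3 genes of this list were lower. Of 15 other EGR and KLF genes and EGR corepressors that passed, Klf2 and Klf12 were lower, and Klf12, a repressor gene, read 21.6 in siCPEB1, below the array median, against 47.7 in siControl, at least 2.21-fold lower. Nab1, an EGR corepressor gene, had a log2 ratio of -0.75 and Klf3 one of 0.78.

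The mRNA decay genes around Zfp36, with 1 probe set for a gene, held none past 2-fold in either direction among 16 that passed. Their median log2 ratio was -0.24, and with the mean over the passing probe sets of a gene 1 of them was lower. Cnot6 and Cnot8, subunits of the CCR4-NOT deadenylase that tristetraprolin recruits, had log2 ratios of -0.89 and -0.71. Zfp36l2, a close relative of Zfp36, had one of -0.57 and Dcp2, a decapping enzyme gene, one of -0.41. Of 16 genes with known AU-rich mRNAs that passed, none was higher and 2 were lower, against 3.49% of all genes. Their median was -0.26. Il6, a cytokine gene, read 461 in siCPEB1-transfected cells, against 954 in siControl-transfected cells, a log2 ratio of -1.05. Cxcl2, a chemokine gene, read 24.3 in siCPEB1, against 54.2 in siControl, a log2 ratio of -1.16. Ccl2 read 24.8 in siCPEB1 and 12.4 in siControl, which is below the array median, at least 1.18-fold higher with that value set at the median. Il11, another cytokine gene, had a log2 ratio of 0.76. Of these 16 genes, 6 had log2 ratios above 0 and 10 below 0, while Fos, whose mRNA also carries AU-rich elements, was more than 2-fold higher.

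The pathways that induce the members were measured through their mRNAs, which do not report the phosphorylation by which these pathways act. Of 11 genes for SRF, its ternary complex factors and its myocardin-related cofactors and targets that passed, 1 was lower, against 3.49% of all genes. Their median log2 ratio was -0.35. The lower gene was Acta2, a smooth muscle actin gene, with 91.2 in siCPEB1-transfected cells, against 345 in siControl-transfected cells, a log2 ratio of -1.92. Srf and Elk3 both had log2 ratios of -0.76, and Cnn2, at -0.97, passed 2-fold when the arrays were scaled on their medians or 75th percentiles. The 11 CREB family and coactivator genes had a median of 0.17 with none past 2-fold, led by Crem at 0.68, Crtc3 at 0.64, Crtc1 at 0.55 and Creb1 at -0.54. Among 15 genes of the ERK, JNK and p38 cascade that passed, 8 more not being matched by symbol, only Mapk10 passed 2-fold. Mapk10, the neuronal JNK3 gene, read 297 in siCPEB1, against 134 in siControl, a log2 ratio of 1.15. Mknk1, Rps6ka5 and Nras had log2 ratios of -0.87, -0.82 and -0.60.

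Feedback genes of the MAPK pathways, which are themselves induced along with the members, had a median log2 ratio of 0.02 over 16 genes. Dusp16, a JNK phosphatase gene, was higher with 504 in siCPEB1-transfected cells, against 230.0 in siControl-transfected cells, a log2 ratio of 1.13. Spred1, an inhibitor gene of the ERK pathway, had a log2 ratio of -0.93, and Dusp14 and Dusp5 had 0.65 and -0.63. Of 13 genes known as AP-1 or EGR1 targets that passed, none was higher and 2 were lower, against 3.49% of all genes. Their median was -0.31. Gadd45a, a growth arrest gene, read 115 in siCPEB1, against 528 in siControl, a log2 ratio of -2.20, and F3, the tissue factor gene, read 124 in siCPEB1, against 248 in siControl, 2.01-fold lower. Ccnd1, the cyclin D1 gene, had a log2 ratio of 0.72 and Nab2 one of -0.70.

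Over all 10 of these lists, with each gene taken once, 146 of 182 genes passed, 4 were higher (2.74%, against 4.99% of all genes) and 12 lower (8.22%, against 3.49%), with a median log2 ratio of -0.13, against a median of 0.05 over all genes. Of the lower genes, Klf2, Klf12 and Ccn2 had siCPEB1 signals below the array median, and the higher gene Trib1 had such a siControl signal. These passed the filter only through the other array, and the total was not counted with the median required in both. The genes of these lists were picked by function with earlier results known, so these shares carry no test. The 10 members had 1 higher and 3 lower. The measured log2 ratio of Fos, 2.20, lay above those of all genes that passed in these 10 lists.

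**Figure D4:**
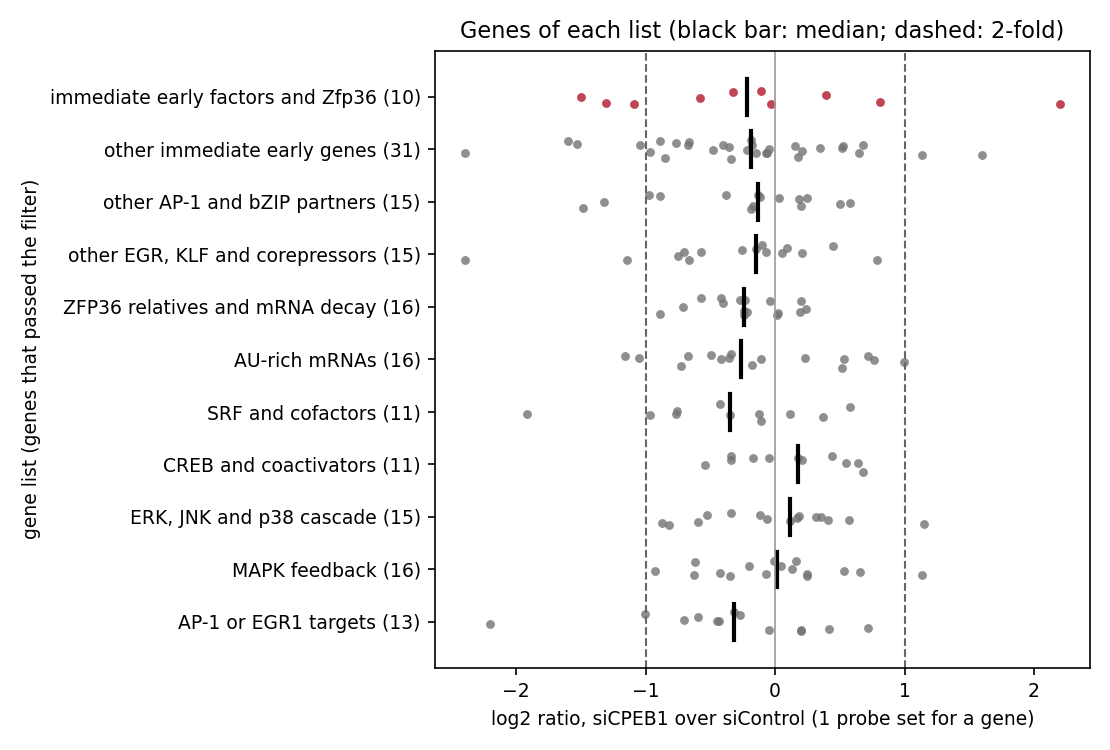
Log2 ratio of siCPEB1 over siControl of each gene that passed the filter, with 1 probe set for a gene, for the 10 immediate early factors and Zfp36 (red, top) and the 10 related lists (grey), with the number of genes in brackets, black bars at the medians and dashed lines at 2-fold. The medians lie between -0.35 and 0.17, and in the top row Fos lies at 2.20 and Egr3, Klf4 and Zfp36 left of the lower line.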

How the data were processed

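Total RNA (100 ng for each array) was labelled and hybridised to Affymetrix Mouse Genome 430 2.0 arrays, 1 for siCPEB1 and 1 for siControl. The deposited values are intensities on a linear scale, which the authors, by the submitters' processing notes, obtained with MAS5 (Affymetrix Expression Console, version not stated). MAS5 subtracts background and scales a whole array, to a target that the sources used here do not state. The platform annotation gave the symbols, which were updated to RefSeq names by gene identifier. Of the probe sets, 34945 had 1 symbol, 932 had several and were not used to name genes, and 9160 had none listed.

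The log2 ratio was taken of the deposited signals as they stand. A gene was read from 1 probe set, by preference not an _s_at or _x_at one and then the brightest that passed. The members and lists were chosen with earlier results of these data known. All members and all their probe sets were named, with Cpeb1 as a check and up to 4 genes from each list, those with the largest ratios in either direction. Alternatives were scaling on the median or the 75th percentile, quantile and loess normalization (span 0.3), 16 added to both signals, a stricter filter or none, leaving out probe sets ending in _s_at, _x_at or _a_at, a threshold of 1.5-fold and the mean over the probe sets of a gene. Setting signals below the array median at the median was chosen after seeing the data. The number of arrays, 1 for each condition, limits the precision. Scripts used Python 3.11.15, numpy 2.4.6, pandas 2.3.3 and statsmodels 0.14.6, and were tested on simulated data. Promoter windows came from RefSeq (GRCm38.p6) and were found for 7 of 10 members.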

Additional observations from a re-analysis of the deposited data

How the results depend on the processing

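With 14 probe sets and 6 alternatives each, 83 of 84 ratios moved by less than the SD of 0.37 between probe sets of the same gene, and the remaining one was Egr3 at 1436329_at, at -1.02 with 16 added. No ratio that was past 2-fold changed sign, and the only ratio that changed sign at all was the one of 0.02 for Jun at 1448694_at. The count of members lower than 0.5-fold was 4 under all 4 other scalings and without a filter, 3 with 16 added (Zfp36 at -0.95) and 3 with signals at or above the median required on both arrays (without Egr3), and 3 without probe sets ending in _s_at, _x_at or _a_at, which removes Zfp36. At 1.5-fold, 2 probe sets were higher (Fos and Fosb) and 5 lower (with 1 more from Egr3). On the whole array, against 1061 probe sets higher and 956 lower, there were 450 higher and 460 lower with 16 added, 551 higher and 596 lower with the median reached in both arrays, and 6405 higher and 5326 lower without a filter. Under the other scalings, 963 to 984 were higher and 1032 to 1074 lower. Of 120 list medians under alternatives, 113 moved by less than the SD above and the other 7 were all of markers of other cell types. Counts within lists moved more. With the median reached in both arrays, lower EGR and KLF genes went to 0, against 2 in the main count, and lower other immediate early genes to 2, against 4. With 16 added, there was 1 lower gene, against 2, among AU-rich mRNAs, AP-1 or EGR1 targets and EGR and KLF genes. With the mean over the probe sets of a gene, 1 mRNA decay gene and 1 MAPK feedback gene were lower, against 0, and 1 other immediate early gene was higher, against 2. The number of neuroblastoma markers that were higher, 6, was 4 or 5 under the other scalings. No paired analysis was possible because there was 1 array for each condition. For the same reason no replicate could be left out.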
